A study of Mus musculus with 20 samples.

Results

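Copying the genome before a cell divides needs a fixed set of proteins, and the genes for 36 of them were followed here through embryonic mouse hearts in which the histone methyltransferase gene Kmt2d was deleted. They comprise the 6 subunits of the MCM helicase, 5 factors that license and fire replication origins, 6 polymerase, clamp and clamp loader subunits, 3 enzymes of deoxynucleotide supply, 4 factors of chromatin assembly and histone supply, 8 cyclins and kinases of the G1/S step, and 4 genes of the E2F and retinoblastoma (Rb) switch. The 36 were chosen by name, with earlier results of these data known, and all 36 were found by symbol among the 33495 genes of the counts table. All 36 passed the filter on low counts in every comparison. Their lowest count was 64 (E2f2 in a Mesp1Cre mutant) and their highest was 12180 (Ccnd3 in a Tnnt2::Cre control).

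In G1, MCM rings are loaded onto origins, and D-type cyclins with Cdk4 or Cdk6 phosphorylate Rb. Phosphorylated Rb releases E2F factors, which switch on the genes for replication proteins, and cyclin E with Cdk2 completes the step into S phase. Embryonic heart cells of these stages divide, and maturing red blood cell precursors, which fill the heart lumen, also divide and carry replication transcripts of their own.

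RNA-seq was performed on 20 libraries of C57BL/6 embryonic heart in 6 groups. Males carrying a Cre and Kmt2d fl/+ had been mated to Kmt2d fl/fl; mTmG/mTmG females, so every embryo sampled carried Cre and 1 copy of the mTmG reporter, which marks cells in which Cre has acted. Controls, called WT in the labels, were Cre; Kmt2d fl/+; mTmG/+ and had therefore lost 1 allele in the Cre domain, whereas mutants were Cre; Kmt2d fl/fl; mTmG/+. Mesp1Cre acts broadly in early mesoderm and was sampled as whole hearts at E9.0, with 4 mutants and 4 controls. Mef2cAHF::Cre acts in precursors of the anterior heart field and was sampled as right ventricle and outflow tract at E11.5, with 3 libraries labelled mutant and 3 labelled control. Tnnt2::Cre acts in embryonic cardiomyocytes and was sampled as whole hearts at E11.5, with 3 mutants and 3 controls. All tissue was dissected without sorting, so cells outside each Cre domain were included. In such bulk samples, fewer cells of a type and less RNA per cell cannot be told apart.

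Totals ranged from 21727258 to 45341870 counts per library. Levels are given as CPM, counts scaled to a common library size, after TMM normalization over the 20 libraries, and fold changes are log2 differences of mutant over control from edgeR's quasi-likelihood test within each line, with p-values adjusted over all genes by Benjamini-Hochberg and a threshold of 0.05. The labels number the libraries of a group as separate samples but do not say whether these are single embryos, pools or litters, so p-values measure the spread between these samples. Kmt2d itself (listed as Mll2) was measured over its whole transcript, of which Cre removes a part. Its level was 126, 140.2, 138 and 129 CPM in Mesp1Cre mutants and 149.8 to 163 CPM in their controls, and 113 to 122 CPM in Tnnt2::Cre mutants and 126 to 167 CPM in their controls. In the Mef2cAHF::Cre libraries it ran the other way, at 183 to 189.7 CPM in those labelled mutant and 142 to 153 CPM in those labelled control (log2 fold change 0.32, SE 0.06, adjusted p = 0.0359). The sample titles and the column names of the table also disagree on the genotype of this line. The titles are followed here as labels only. Read by its column names, the line would have each sign below turned round.

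The libraries also differed in blood. The 24 measured genes of an erythroid list (globins, Gata1, Klf1, Alas2 and others) had a mean log2 CPM of 3.54 to 5.33 in Mesp1Cre mutants and 4.53 to 6.07 in Mesp1Cre controls, 6.65 to 7.54 in Mef2cAHF::Cre libraries labelled mutant and 5.12 to 6.80 in those labelled control, and 6.25 to 8.88 in Tnnt2::Cre mutants and 8.42 to 9.18 in Tnnt2::Cre controls. Together they took from 0.233% of counts (a Mesp1Cre mutant) to 15.4% (a Tnnt2::Cre control). None of the 24 was at 0 in any library. The cardiomyocyte list was high in all 6 groups, with a mean log2 CPM from 9.65 to 10.9.

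E2F factors bind short GC-rich sites ahead of many replication genes, and the promoters of the 36 were searched for TTGGCGC and for TTCCCGC on both strands. These letters can overlap, since TTGGCGCCAA holds the first form on each strand. Promoter windows of 300 bases, which end 50 bases after the start (RefSeq, GRCm38.p6), were found for 28 of the 36 genes. At least 1 match lay in the windows of 17 of the 28 (60.7%), against 7.79% of the 27025 genes with a window in the whole reference. Among genes that fell in Mesp1Cre mutants (below), 7 of 13 held a match (53.8%), and among those not past the threshold 10 of 15 did (66.7%). The stretches shown are from 4 genes that fell in Mesp1Cre mutants (Mcm5, Cdc6, Rrm1 and Uhrf1) and from 2 that did not pass the threshold there and were higher at the later stage (Mcm6 and Mcm7). All lie before the start, run 5′ to 3′ on the strand of the gene and have in capitals the letters searched, in either orientation.
Mcm5, chr8:75109320-75109376, plus strand: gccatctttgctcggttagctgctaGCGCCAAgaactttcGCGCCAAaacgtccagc
Cdc6, chr11:98907988-98908044, plus strand: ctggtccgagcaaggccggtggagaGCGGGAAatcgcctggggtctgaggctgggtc
Rrm1, chr7:102441603-102441659, plus strand: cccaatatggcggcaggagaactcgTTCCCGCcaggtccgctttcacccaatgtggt
Uhrf1, chr17:56303264-56303320, plus strand: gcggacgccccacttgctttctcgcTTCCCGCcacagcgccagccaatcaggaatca
Mcm6, chr1:128359720-128359776, minus strand: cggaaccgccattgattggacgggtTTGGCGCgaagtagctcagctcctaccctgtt
Mcm7, chr5:138172017-138172073, minus strand: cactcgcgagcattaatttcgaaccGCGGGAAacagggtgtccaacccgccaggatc
Windows of Rrm2, Tyms, Pcna and Slbp held neither form. No window was found for Mcm4, Gins1, Gins2, Pole, Ccnd1, Ccnd2, Ccne2 and Rb1.

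To ask how replication genes stood when Kmt2d was deleted in early mesoderm, Mesp1Cre mutants were compared with their controls at E9.0. Of the 36 genes, 18 fell, 1 rose and 17 did not pass the threshold, where 5.29% of the 15883 genes tested fell and 6.17% rose. The median log2 fold change of the 36 was −0.45, beside −0.00 over all genes tested, and 35 of the 36 were below 0, beside 50.2% of all genes. Without adjustment 28 of the 36 had a p under 0.05, 27 of them lower, beside 26.9% and 13.6% of all genes. Mutant and control libraries did not overlap for 21 of the 36, beside 18.1% of all genes. The single gene that rose was Rb1, the brake on E2F. Every functional group but the E2F and Rb group held genes that fell, from 2 of 6 polymerase, clamp and clamp loader genes to all 3 of deoxynucleotide supply.

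**Figure D1:**
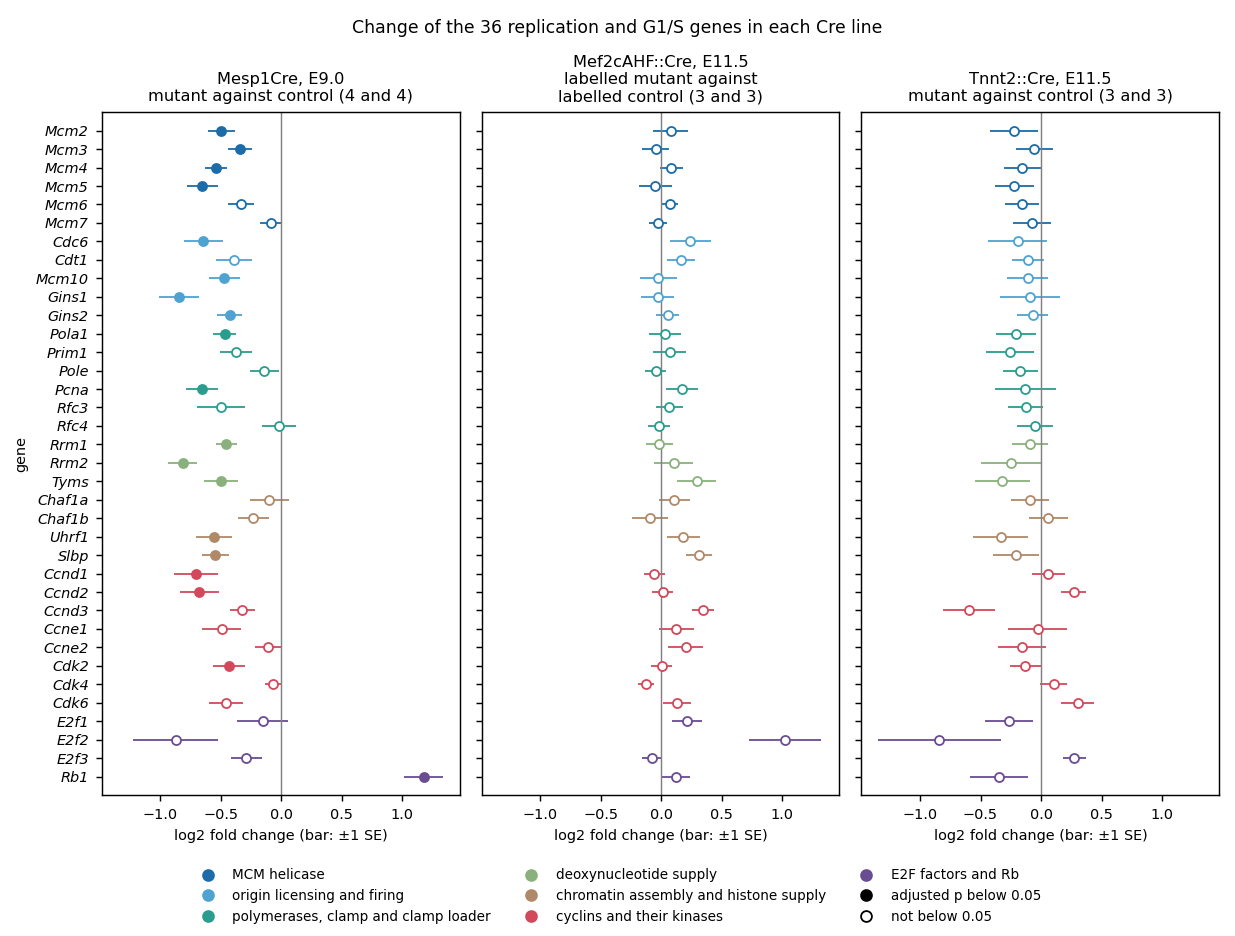
Log2 fold change (x axis) of each of the 36 genes (y axis) in the 3 Cre lines, with bars of 1 standard error and filled points where the adjusted p was below 0.05. In Mesp1Cre 35 of 36 points lie left of 0 and Rb1 lies at 1.17, while no point is filled in the other lines.

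Within the MCM helicase, the ring that unwinds DNA at the fork, 4 of 6 subunits fell. Mcm5 was at 25.9, 37.2, 29.0 and 28.4 CPM in the mutants and 46.3, 43.0, 53.3 and 49.3 CPM in the controls, so all mutants lay below all controls (log2 fold change −0.65, SE 0.13, adjusted p = 0.00676). Mcm2 was at 44.5, 66.3, 56.6 and 52.6 CPM in the mutants and stayed within 77.4 to 79.9 CPM in the controls (−0.49, SE 0.11, adjusted p = 0.0150). Mcm4 averaged 86.1 ± 8.99 CPM in mutants and 127 ± 8.79 CPM in controls (SD, n = 4 each), a change of −0.54 (adjusted p = 0.00312), and Mcm3 changed by −0.34 (adjusted p = 0.0411). Mcm6 had a log2 fold change of −0.33 with groups that did not overlap but did not pass (adjusted p = 0.0595). Mcm7 had similar levels in both groups, 70.3 ± 5.53 CPM in mutants and 75.6 ± 5.01 CPM in controls (−0.09, adjusted p = 0.581).

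Of the factors that license and fire origins, 4 of 5 fell. Gins1, a subunit of the GINS complex that joins the MCM ring to form the active helicase, was at 7.76, 12.1, 9.34 and 9.79 CPM in the mutants and 16.6, 19.7, 19.0 and 15.6 CPM in the controls. Its groups did not overlap, and its log2 fold change of −0.84 (SE 0.16, adjusted p = 0.00627) was the lowest among the 18 genes that fell. Its partner Gins2 changed by −0.42 (adjusted p = 0.0200). Cdc6, which loads the MCM ring, was at 13.0, 22.2, 21.9 and 16.7 CPM in the mutants and 27.2 to 30.6 CPM in the controls (−0.64, SE 0.16, adjusted p = 0.0216). Mcm10, which activates the loaded ring, changed by −0.47 (adjusted p = 0.0339). The other loading factor, Cdt1, did not pass (−0.39, adjusted p = 0.110).

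Synthesis at the fork was represented by 2 called genes of 6. Pcna, the sliding clamp, was at 81.5, 135, 103 and 108 CPM in the mutants and 186, 166, 145 and 186 CPM in the controls, without overlap (−0.66, SE 0.13, adjusted p = 0.00835). Pola1, the catalytic subunit of the polymerase that primes new strands, averaged 48.9 ± 3.50 CPM in mutants and 68.4 ± 5.24 CPM in controls (−0.47, adjusted p = 0.00856). The remaining 4, namely the primase subunit Prim1, the leading-strand polymerase Pole and the clamp loader subunits Rfc3 and Rfc4, had log2 fold changes between −0.50 and −0.02 and did not pass.

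All 3 genes of deoxynucleotide supply fell. Rrm2, the cell-cycle-regulated subunit of ribonucleotide reductase, was at 76.9, 119, 107 and 105 CPM in the mutants and 178, 187, 165 and 199 CPM in the controls. The lowest control lay well above the highest mutant, and the change was −0.82 (SE 0.12, adjusted p = 0.00101). The large subunit Rrm1 averaged 112 ± 12.0 CPM in mutants and 155 ± 6.53 CPM in controls (−0.45, adjusted p = 0.00576). Tyms, the thymidylate synthase, changed by −0.50 (SE 0.14, adjusted p = 0.0390).

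Chromatin assembly was split. Uhrf1, which helps copy DNA methylation behind the fork, was at 42.6, 79.4, 56.1 and 58.6 CPM in the mutants and 82.5 to 91.3 CPM in the controls (−0.56, SE 0.15, adjusted p = 0.0293). Slbp, which binds the stem-loop of histone mRNAs, was at 32.2, 41.8, 35.2 and 35.5 CPM in the mutants and 48.2 to 57.4 CPM in the controls (−0.54, SE 0.11, adjusted p = 0.00814). Both sets of libraries were separate. The histone chaperone subunits Chaf1a and Chaf1b, which place histones on new DNA, had changes of −0.10 and −0.23 and did not pass. The Chaf1b groups did not overlap either, at 18.5 to 21.2 CPM in mutants and 21.3 to 27.8 CPM in controls.

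Of the 8 cyclins and kinases, 3 fell. Ccnd1, a D-type cyclin, was at 22.3, 35.6, 45.4 and 31.2 CPM in the mutants and 56.2, 45.2, 60.5 and 59.8 CPM in the controls, so mutant 3 just exceeded control 2 (−0.70, SE 0.18, adjusted p = 0.0255). Ccnd2 was at 67.0, 81.6, 74.5 and 76.7 CPM in the mutants and 120.0, 128, 79.0 and 158 CPM in the controls, of which control 3 lay within the mutant range (−0.68, SE 0.16, adjusted p = 0.0174). Ccnd3 did not pass, with 71.9 to 95.3 CPM in mutants and 99.4 to 122 CPM in controls (−0.32, SE 0.10, adjusted p = 0.0615). Of the 3 D cyclins only Ccnd3 had groups that did not overlap. Cdk2, the partner of cyclin E, changed by −0.43 (adjusted p = 0.0470), whereas Cdk6, a partner of the D cyclins, was at 24.5, 18.2, 17.7 and 20.9 CPM in mutants and 26.1, 24.2, 32.3 and 30.1 CPM in controls and narrowly missed (−0.45, adjusted p = 0.0525). Ccne1 (−0.49, adjusted p = 0.0666), Ccne2 (−0.11) and Cdk4 (−0.07) did not pass either.

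Rb1 moved the other way. It was at 40.0, 34.5, 59.0 and 37.9 CPM in the mutants and 20.4, 16.5, 18.9 and 21.0 CPM in the controls, so the lowest mutant exceeded the highest control, and the log2 fold change was 1.17 (SE 0.16, adjusted p = 0.000749). The gene lies on the minus strand at chr14:73595310-73725598 (mm9). Its exons share 8.11% of their bases with Rcbtb2 and 6.78% with Lpar6, both on the opposite strand, and those genes had log2 fold changes of −0.07 (adjusted p = 0.750) and 0.08 (adjusted p = 0.822) in the same comparison. The 3 E2F factors, which Rb1 restrains, did not pass. E2f2 had the lowest fold change of all 36 and also the largest error, at 2.70, 7.38, 3.54 and 3.49 CPM in the mutants and 5.92, 6.64, 6.33 and 13.0 CPM in the controls (−0.87, SE 0.35, adjusted p = 0.126). E2f3 and E2f1 had changes of −0.29 and −0.15.

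Further genes of the pathway were read from a list of 54 (origin recognition, further polymerase, clamp loader and GINS subunits, lagging-strand enzymes, nucleotide enzymes, Cdk inhibitors and Rb relatives). Of these, 10 fell and 2 rose in Mesp1Cre mutants, where 5.29% of all genes fell and 6.17% rose, with a median log2 fold change of −0.24. Among the genes that fell were Pole2, Pole4, Rpa1, Tk1, Dut, Skp2, Asf1b, Tipin and Wdhd1, with Asf1b, a histone chaperone, at −0.77 (adjusted p = 0.00662) and the nucleotide enzymes Tk1 and Dut at −0.44 and −0.39. The genes that rose were Cdkn1b (0.72, SE 0.15, adjusted p = 0.00882), which encodes the Cdk inhibitor p27, and the Rb relative Rbl2 (0.50, SE 0.14, adjusted p = 0.0397). A further Cdk inhibitor, Cdkn1a, had a change of 1.00 and did not pass (SE 0.31, adjusted p = 0.0526).

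**Figure D2:**
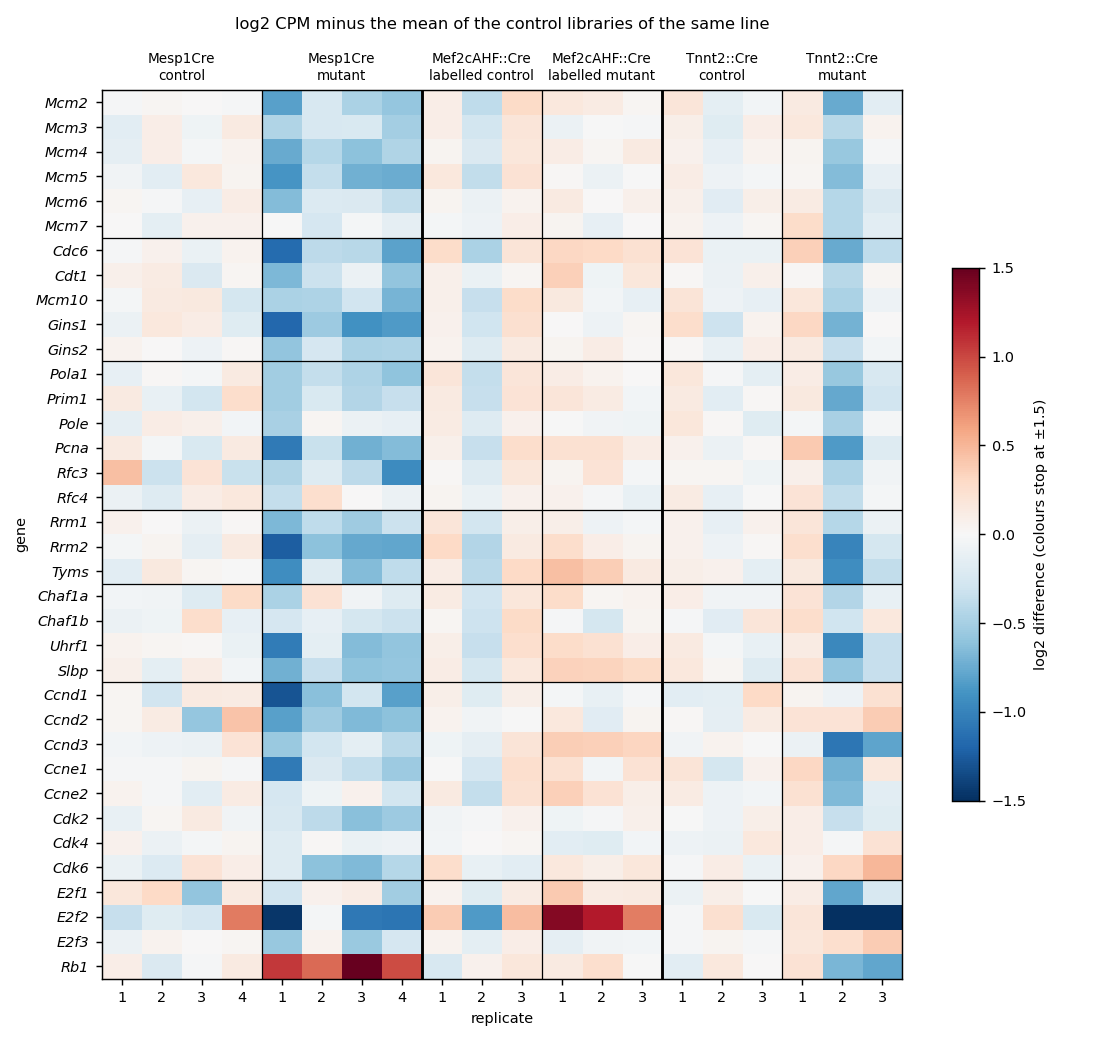
Log2 CPM of each gene (rows, grouped by role) in each of the 20 libraries (columns) minus the mean of the controls of the same line, in colours that stop at 1.5 either way. Mesp1Cre mutants are low in most rows and high in Rb1, and 1 library in each of the other lines, labelled control 2 of Mef2cAHF::Cre and mutant 2 of Tnnt2::Cre, is low in most rows.

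Blood content moved with genotype in the same comparison. Of the 24 erythroid genes, 8 fell and 0 rose (median −1.11), and their share of counts was 0.233% to 0.848% in the mutants and 0.546% to 1.81% in the controls. Mutant 1 had the least erythroid RNA of the 8 libraries, and it was the library in which 25 of the 36 genes had their lowest level, beside 18.2% of all genes. The range of erythroid content overlapped between the groups. Mutant 2 (erythroid mean log2 CPM 5.33) held more erythroid RNA than control 2 (4.53), and 30 of the 36 genes were lower in mutant 2, beside 50.7% of all genes. Mutant 4 (4.69) also exceeded control 2, and 32 of the 36 were lower in it, beside 51.7% of all genes. Over all pairs of 1 mutant and 1 control, 26 to 35 of the 36 were lower in the mutant, beside 50.5% to 52.9% of all genes. Single pairs do not test the part of blood. With erythroid content as a covariate, 32 of the 36 were below 0 with a median of −0.34, and calls were fewer across the whole table (402 genes instead of 1821). Of the 36, 1 was lower and 1 higher past the threshold in that fit, namely Rrm2 (−0.65, adjusted p = 0.0178) and Rb1 (1.10, adjusted p = 0.0216). Endothelial and endocardial markers were higher in mutants (4 of 10 rose, 0 fell, list means of 5.33 to 5.63 log2 CPM in mutants and 5.01 to 5.18 in controls). Of the cardiomyocyte list, 2 of 12 rose and 2 fell. The part of these other cells in the result was not tested. The count of the 36 that fell was 10 without mutant 4, 11 without control 1, 2 or 4 taken singly, 12 without mutant 1 and 20 without mutant 2. Calls over all genes changed too, from 1821 with all libraries to 1347 without mutant 4, 1052 without mutant 1 and 2161 without mutant 2. They were 1133, 1291 and 1190 without control 1, 2 or 4.

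**Figure D3:**
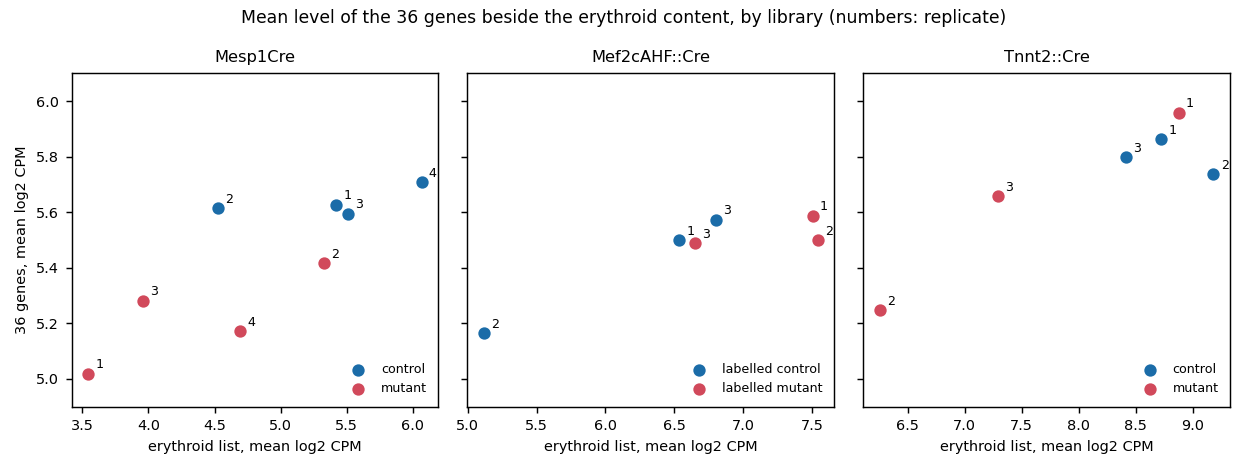
Mean log2 CPM of the 36 genes (y axis) against the mean log2 CPM of the 24 erythroid genes (x axis) in each library, numbered by replicate, with a panel for each Cre line. The Mesp1Cre controls lie at 5.59 to 5.71 and the mutants at 5.02 to 5.42 and the lowest points of the other lines are at 5.16 and 5.25. In each panel the library lowest on the y axis is also lowest on the x axis.

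To ask whether the same genes moved when Kmt2d was deleted in the anterior heart field, libraries labelled mutant and labelled control were compared in Mef2cAHF::Cre. None of the 36 passed the threshold, where 2.85% of 16920 genes did (1.81% higher and 1.04% lower). By edgeR 3 of the 36 had an unadjusted p under 0.05, beside 17.9% of all genes. DESeq2's Wald test called 1 of the 36 higher by the titles, where 1103 of 16920 genes passed in either direction. The median log2 fold change of the 36 was 0.07, beside −0.01 over all genes. By the titles 24 were above 0 and 12 below (51.2% of all genes below), hence 12 above and 24 below by the column names. With erythroid content as a covariate the direction turned, with a median of −0.12 and 27 of the 36 below 0 by the titles, and none passed. The groups did not overlap for 4 of the 36, beside 23.9% of all genes.

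E2f2 had the largest difference in this line, at 33.8, 29.6 and 22.0 CPM in libraries labelled mutant and 16.9, 7.14 and 17.9 CPM in those labelled control (1.02 by the titles, SE 0.30, adjusted p = 0.110). Ccnd3 followed at 132, 131 and 127 CPM against 97.7, 93.1 and 117 CPM (0.34, SE 0.09, adjusted p = 0.0796). Slbp was at 53.9, 53.7 and 52.1 CPM against 45.8, 35.4 and 47.5 CPM (0.31, SE 0.11, adjusted p = 0.163). All 3 were separate between the groups, and by the column names all 3 would be lower in the mutants. A further separate gene, Cdk4, ran the other way. It was at 174.2 to 191.7 CPM in libraries labelled mutant and 192.6 to 202.1 CPM in those labelled control (−0.12 by the titles), and it did not pass. Without labelled control 2, E2f2 passed (0.71, adjusted p = 0.0461), and without labelled control 3, Ccnd3 did (0.45, adjusted p = 0.0211), and neither passed without any 1 of the other libraries. With the erythroid covariate E2f2 was at 0.30 (adjusted p = 0.307) and Ccnd3 at 0.21 (adjusted p = 0.326). Erythroid genes moved alongside, with 23 of 24 above 0 and 2 higher past the threshold (median 0.98).

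The other D cyclins and Cdk6 hardly differed. Ccnd1 lay at 99.9 to 106 CPM in libraries labelled mutant and 94.9 to 115 CPM in those labelled control (−0.06, adjusted p = 0.791), Ccnd2 at 42.0 to 52.8 and 45.7 to 49.4 CPM (0.01, adjusted p = 0.966) and Cdk6 at 27.8 to 29.5 and 23.4 to 31.5 CPM (0.13, adjusted p = 0.621). Rb1 was at 50.5, 54.9 and 45.6 CPM in libraries labelled mutant and 38.9, 48.2 and 51.9 CPM in those labelled control, and the groups overlapped (0.12, adjusted p = 0.649). Labelled control 2, with the least erythroid RNA of the line (5.12), held the lowest level of 29 of the 36 genes, beside 24.1% of all genes. Rrm2 shows the pattern, at 98.6 CPM there and 147 and 165 CPM in the other labelled controls. Without that library the median of the 36 was −0.02 and 22 were below 0. Of the 54 further genes none passed (median 0.03).

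Deletion in cardiomyocytes was read from the Tnnt2::Cre hearts at E11.5. None of the 36 passed the threshold, where 0.293% of 17045 genes did (0.0763% higher and 0.217% lower). By edgeR 3 had an unadjusted p under 0.05, beside 11.9% of all genes. DESeq2's Wald test called 0 of the 36, where 368 of 17045 genes passed. The median log2 fold change was −0.13, beside 0.00 over all genes, with 30 of 36 below 0 (49.3% of all genes) and 3 with groups that did not overlap (16.9% of all genes).

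The 3 mutants were spread widely. Mutant 1, whose erythroid content (8.88) was within the control range of 8.42 to 9.18, held the highest level of the 6 libraries for 21 of the 36 genes, beside 17.6% of all genes. Mutant 2, with the least erythroid RNA (6.25), held the lowest for 30 of the 36, beside 23.0% of all genes. Pcna was at 278, 118 and 184 CPM in mutants 1, 2 and 3 and 199 to 222 CPM in controls, and Rrm2 at 246, 104 and 172 CPM and 196 to 215 CPM. Mutant 1 was thus above all controls for both and mutant 2 below them. All 24 erythroid genes were below 0 (median −1.0) and none passed, nor did any of the 54 further genes (median −0.08). With erythroid content as a covariate, 2 of the 36 were below 0 and the median was 0.11.

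E2f2 and Ccnd3 were highest in mutant 1 and lowest in mutant 2 among the mutants as well. E2f2 was at 78.8, 14.6 and 24.0 CPM in the mutants and 68.7, 82.0 and 59.2 CPM in the controls (−0.84, SE 0.51, adjusted p = 0.558). Ccnd3 was at 277, 139.9 and 170.3 CPM in the mutants and 286, 307 and 294 CPM in the controls, below them in every mutant (−0.60, SE 0.22, adjusted p = 0.347). Without mutant 1, 896 of 17487 genes passed in either direction, beside 50 of 17045 with all libraries. Of the 36, 3 were lower past the threshold in that fit, among them E2f2 (−1.86, adjusted p = 0.00356) and Ccnd3 (−0.93, adjusted p = 0.00564). Without mutant 2 they were at −0.45 and −0.41 and did not pass, and the median of the 36 was 0.02 with 14 below 0. With the erythroid covariate E2f2 was at −0.0074 (adjusted p = 0.992) and Ccnd3 at −0.20, and neither passed.

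A few G1/S genes ran the other way. Ccnd2 was at 51.1, 51.4 and 57.9 CPM in the mutants and 44.8, 40.3 and 48.3 CPM in the controls (0.27, SE 0.10, adjusted p = 0.361), and E2f3 at 42.3, 44.7 and 48.8 CPM against 36.9, 38.6 and 36.9 CPM (0.27, adjusted p = 0.327). Both were separate between the groups and neither passed. Cdk6 was at 21.4, 25.3 and 28.9 CPM against 20.3, 22.0 and 19.1 CPM (0.30, adjusted p = 0.428), and Ccnd1 at 81.1, 74.6 and 92.5 CPM against 70.8, 71.4 and 96.5 CPM (0.06, adjusted p = 0.904). Rb1 was at 61.7, 33.0 and 30.9 CPM in the mutants and 47.7, 59.2 and 53.4 CPM in the controls, with overlap (−0.35, adjusted p = 0.611).

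**Figure D4:**
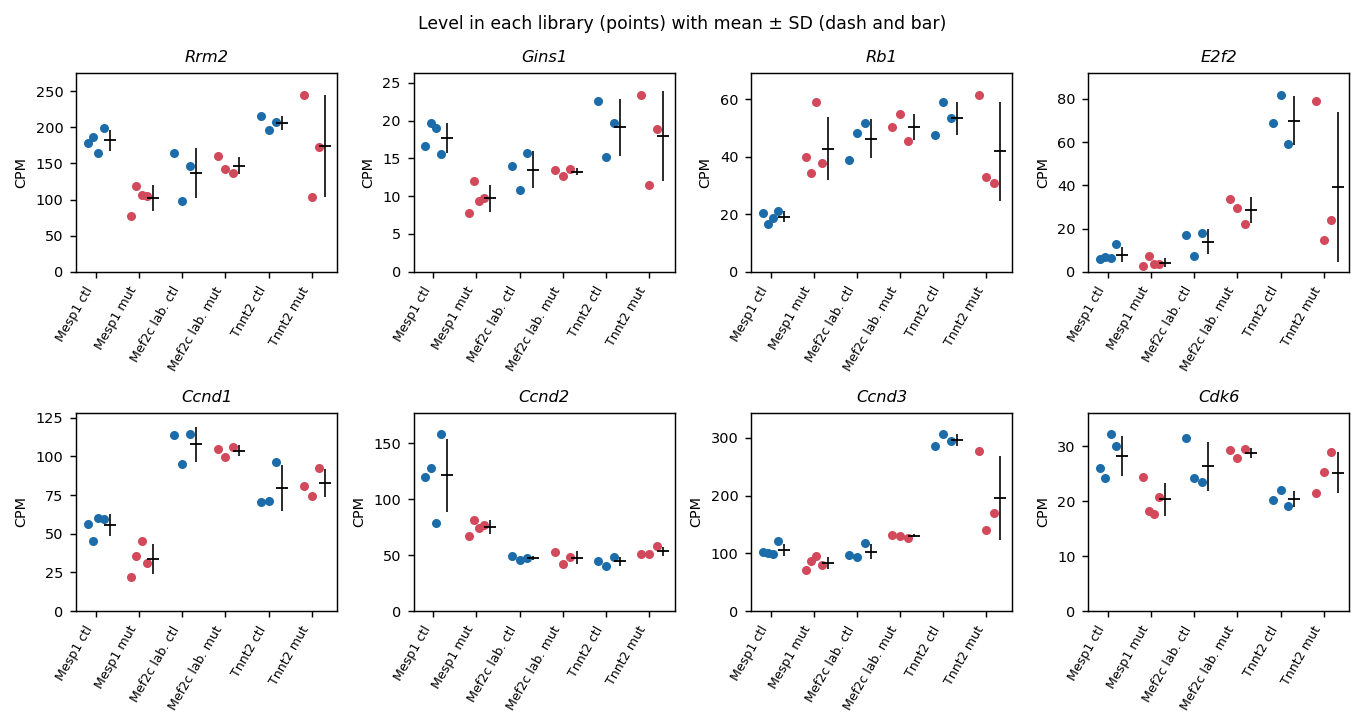
CPM of 8 genes (y axis, from 0) in each library of the 6 groups (x axis, blue control and red mutant, as labelled for Mef2cAHF::Cre), with the mean and SD beside the points. Rb1 is at 34.5 to 59.0 CPM in Mesp1Cre mutants and 16.5 to 21.0 CPM in their controls, while E2f2 is spread from 14.6 to 78.8 CPM within the Tnnt2::Cre mutants.

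A call in Mesp1Cre and none in Tnnt2::Cre does not show that the lines differed, so the difference of their genotype effects was tested in a fit of all 20 libraries. It passed for 3 of the 36, where 3.04% of 18391 genes passed (1.23% above 0 and 1.81% below). The difference, Mesp1Cre effect minus Tnnt2::Cre effect, was 1.51 on the log2 scale for Rb1 (SE 0.29, adjusted p = 0.00939), −0.96 for Ccnd2 (SE 0.21, adjusted p = 0.0192) and −0.77 for Cdk6 (SE 0.20, adjusted p = 0.0383). For the other 33, among them Rrm2 (−0.59, adjusted p = 0.276), Gins1 (−0.77, adjusted p = 0.139) and Ccnd1 (−0.78, adjusted p = 0.0762), the test did not separate the lines. The lines also differ in stage, blood and depth, which cannot be told apart from the Cre. With each of the 14 libraries of both lines left out in turn, Rb1 passed in all 14 fits, Ccnd2 in 12 (not without Tnnt2::Cre mutant 3 or control 2) and Cdk6 in 7. Cdk6 did not pass without Tnnt2::Cre mutant 3, any 1 of the 3 Tnnt2::Cre controls, or Mesp1Cre control 3, control 4 or mutant 3 (adjusted p from 0.0582 to 0.122).

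Finally, the control whole hearts of the 2 stages were compared, E11.5 (Tnnt2::Cre, n = 3) with E9.0 (Mesp1Cre, n = 4), to see how the genes stood across early growth of the heart. The stages also differ in Cre line and depth (25581534 to 28790705 counts at E9.0 and 36809972 to 45341870 at E11.5). These cannot be told apart from stage, and the controls are those of the genotype comparisons above. Of the 36, 10 were higher and 10 lower at E11.5, where 19.6% of 16697 genes were higher and 18.8% lower (38.3% in all). Their median log2 fold change was 0.15, beside −0.01 over all genes, with 13 below 0 (50.5% of all genes), and the groups did not overlap for 18 (45.4% of all genes). Replication machinery shifted by small amounts in both directions, whereas 7 of 8 cyclins and kinases and all 4 E2F and Rb genes passed. All 24 erythroid genes were higher at E11.5 (median 3.04), and all 8 epicardial and mesenchymal markers and 5 of 8 macrophage markers were higher too, so cell makeup also differed between the stages.

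Per gene length, the levels of the control hearts were led by the G1/S genes. At E9.0 the highest mean FPKM (reads scaled by the authors to gene length and library total) of the 36 belonged to Ccnd2 at 94.9 ± 24.9, followed by Cdk4 at 89.8 ± 4.30, Pcna at 68.2 ± 7.05, Rrm2 at 63.0 ± 4.42 and Ccnd3 at 53.5 ± 5.42 (SD, n = 4). Ccnd2 and Cdk4 did not differ beyond their spread. At E11.5 the highest was Ccnd3 at 142 ± 6.54 FPKM, followed by Pcna at 80.5 ± 5.38, Cdk4 at 72.4 ± 4.83 and Rrm2 at 68.0 ± 4.30 (SD, n = 3), while Ccnd2 stood at 33.1 ± 2.39. The D cyclins thus changed order, with Ccnd2 first at E9.0 and Ccnd3 first at E11.5. The length given for Ccnd2 was 1225 bases, against 5701 annotated exonic bases, so its rank by FPKM depends on that length. In CPM the E9.0 controls averaged 244 ± 11.8 for Cdk4, 121 ± 32.8 for Ccnd2 and 106 ± 10.6 for Ccnd3.

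The D cyclin changes were large against the replicate spread. In these controls the erythroid share of counts was 0.546% to 1.81% at E9.0 and 9.44% to 15.4% at E11.5. No covariate fit was made for stage, so the part of blood in these changes was not tested. Ccnd3 rose from 99.4 to 122 CPM at E9.0 to 286, 307 and 294 CPM at E11.5 (log2 fold change 1.45, SE 0.09, adjusted p = 1.16e-06). Ccnd2 fell from 79.0 to 158 CPM to 44.8, 40.3 and 48.3 CPM (−1.48, SE 0.19, adjusted p = 0.000115). Ccnd1 rose from a mean of 55.4 ± 7.08 CPM to 79.5 ± 14.7 CPM (0.49, SE 0.13, adjusted p = 0.0124). Their kinases fell slightly, Cdk6 by 0.49 (adjusted p = 0.0111) and Cdk4 by 0.27 (adjusted p = 0.0249) on the log2 scale, as did the E-type cyclins Ccne1 (−0.60, adjusted p = 0.00332) and Ccne2 (−0.48, adjusted p = 0.00429).

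All 4 E2F and Rb genes changed, and here too the part of blood was not tested. E2f2 rose from 5.92, 6.64, 6.33 and 13.0 CPM to 68.7, 82.0 and 59.2 CPM (3.11, SE 0.25, adjusted p = 6.35e-06). Rb1 rose from 16.5 to 21.0 CPM to 47.7 to 59.2 CPM (1.44, SE 0.12, adjusted p = 8.22e-06), and E2f1 by 0.62 (adjusted p = 0.0211). E2f3 fell from 65.4 to 72.0 CPM to 36.9 to 38.6 CPM (−0.92, SE 0.08, adjusted p = 1.37e-05). The Rb1 level of Mesp1Cre mutants at E9.0, 34.5 to 59.0 CPM, lay above that of the E9.0 controls and overlapped that of the E11.5 controls.

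Among the 24 replication factors, 5 were higher and 4 lower at E11.5, a share of 37.5% that is near the 38.3% of all genes. Slbp rose most (0.71, SE 0.10, adjusted p = 0.000287), from 53.4 ± 4.28 to 89.5 ± 10.8 CPM. Mcm7 (0.35, adjusted p = 0.00483), Mcm6 (0.33, adjusted p = 0.0117), Uhrf1 (0.32, adjusted p = 0.00895) and Pcna (0.28, adjusted p = 0.0414) rose by less. Gins2 (−0.54, adjusted p = 0.000969), Mcm10 (−0.47, adjusted p = 0.0151), Pole (−0.33, adjusted p = 0.0293) and Mcm3 (−0.31, adjusted p = 0.0286) fell. Rrm1, Rrm2 and Tyms, which all fell in Mesp1Cre mutants, had stage changes of 0.14 to 0.23 that did not pass. In the list of 54 further genes, 10 were higher and 6 lower (29.6%, below the share of all genes).

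**Figure D5:**
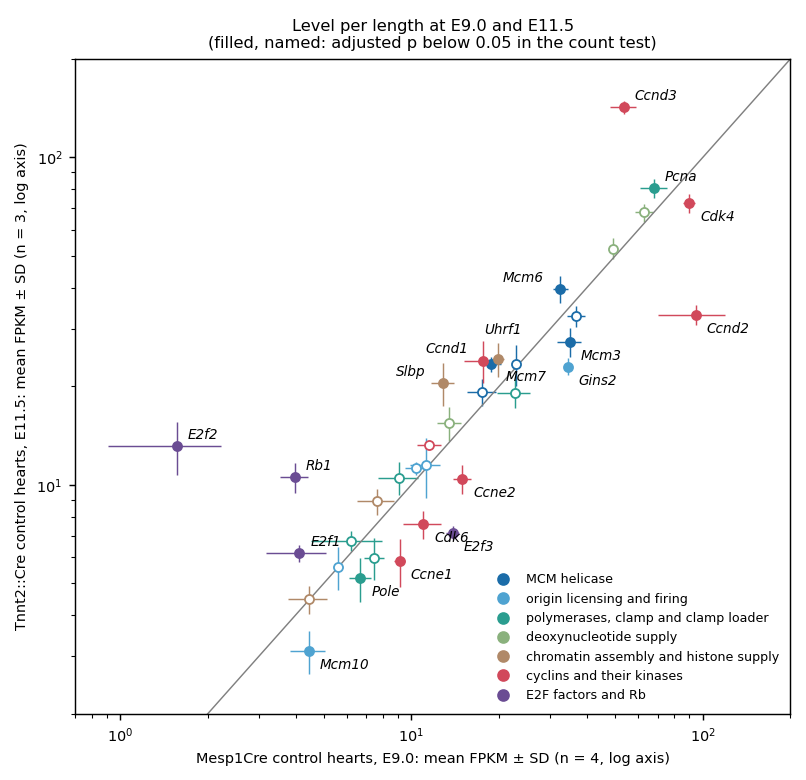
Mean FPKM ± SD of each gene in E9.0 Mesp1Cre controls (x axis, log) and E11.5 Tnnt2::Cre controls (y axis, log), with a line of equal level and filled, named points where the count test passed. Most replication genes lie near the line, E2f2, Rb1 and Ccnd3 lie above it and Ccnd2 and E2f3 below.

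Annotated exons of 12 of the 36 genes share bases with another gene. For 6 of the 12, among them Gins2, Ccnd1 and Ccne2, the feature length in the table equals the exonic bases minus the shared ones (1339 of 4097 bases for Gins2), so the shared bases were left out of that length. Some neighbours on the opposite strand also moved. In Mesp1Cre mutants Bysl, which overlaps Ccnd3, was at −0.77 (adjusted p = 0.00715). At E11.5 against E9.0, Oraov1, which overlaps Ccnd1, was at 0.52 (adjusted p = 0.0384). Ints8, which overlaps Ccne2, was at −0.47 (adjusted p = 0.00252), and Bysl at −0.48 (adjusted p = 0.0170), opposite in sign to Ccnd3. Gse1, Eif4a2, Tspan31, Rcbtb2 and Lpar6 did not pass in either comparison. For 4 genes a large part of the exons has near copies elsewhere in the genome. Stretches of at least 100 bases with at least 97% identity at another place covered 57.3% of the exonic bases of Uhrf1, 45.5% of Pcna and 33.6% of Mcm7, each at 1 other place, and 31.9% of Slbp at 62 places. How reads there were assigned is not given in the sources used here, so the values of these genes are less certain than those of the rest. All 4 were among the replication factors higher at E11.5, where Mcm6 was the only other. Uhrf1, Pcna and Slbp were also among the genes that fell in Mesp1Cre mutants.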

How the data were processed

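RNA-seq counts of 20 embryonic heart libraries were analysed. The authors aligned reads to mm9 (TopHat2 2.0.8b in the submitters' processing notes) and deposited for each gene a count, assigned with featureCounts and not normalized, and an FPKM computed with USeq from reads, length and library total. Of the per-sample columns, 20 of variance-corrected log2 values, which the authors also deposited, were not used. Whether counting used strand is not given in the sources used here. The labels name a NuGEN kit and the study a TruSeq kit. For Mesp1Cre the labels give E9.0 and their protocol text E11.5.

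Samples were grouped by title. The 36 genes and all lists were chosen with earlier results of these data known. Within each line, edgeR 4.0.16 (R 4.3.3) was run with filterByExpr, TMM and the quasi-likelihood F test, with Benjamini-Hochberg adjustment over all genes tested. Text names genes past the threshold in each comparison, and E2f2, Ccnd1, Ccnd2, Ccnd3 and Cdk6 in all; others named were chosen after their values were seen. Alternatives used DESeq2 1.42.0, limma 3.58.1 on log2(FPKM + 0.1) and log2(FPKM + 1), and others in the closing section. The test was also run on simulated counts. These had the same spread for all genes and no difference in blood, so they do not show how it behaves on these libraries. A gene of the list of 54 is not reported here by name. Exon overlaps came from GENCODE vM1, near copies from BLAST 2.17.0. Libraries of a group differed by more than counting noise (chi-square per degree of freedom of at least 9.56). Depth per library was 21727258 to 45341870 counts.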

Additional observations from a re-analysis of the deposited data

Results flagged for a closer look

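Among the 36 genes in the 2 Mesp1Cre groups (72 checks for a library far from the others of its group), 4 stood out, all in controls, and chance alone would mark about 1 in 20. Control 4 had 13.0 CPM of E2f2 beside 5.92 to 6.64 CPM in the other 3, and 122 CPM of Ccnd3 beside 99.4 to 102 CPM, and it also had the most erythroid RNA of the group (6.07). Control 3 had 27.8 CPM of Chaf1b beside 21.3 to 22.1 CPM, and 26.1 CPM of Ccne1 in a group whose other libraries span only 24.97 to 24.99 CPM. Whether blood or another feature of these libraries had a part was not tested.

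The genotype effect differed between Mesp1Cre and Tnnt2::Cre for 3 genes in the interaction test of edgeR. The difference was 1.51 for Rb1, with effects of 1.17 and −0.35. It was −0.96 for Ccnd2, with effects of −0.68 and 0.27, and −0.77 for Cdk6, with effects of −0.45 and 0.30. In each case the sign of the effect also differed between the lines, although no effect passed alone in Tnnt2::Cre.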

How the results depend on the processing

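In Mesp1Cre the number of the 36 genes lower past the threshold was 18, and it was 23 with DESeq2's Wald test, 22 in a fit of all 6 groups, 8 on log2(FPKM + 0.1), 8 on log2(FPKM + 1), 1 with the erythroid covariate and 10 to 20 when each library was left out in turn. The deposited FPKM, which is scaled by library total, moved the median of all genes by 0.15, −0.13 and 0.11 in Mesp1Cre, Mef2cAHF::Cre and Tnnt2::Cre (log2, pseudocount 0.1), and relative to its own median 35 of the 36 stayed lower in Mesp1Cre. Rb1 was higher past the threshold in all 11 alternatives (1.10 to 1.29) and all 8 fits without a library (0.99 to 1.28). Rrm2 was lower past it in all 11 and all 8. Of those 8 fits, Tyms and Cdk2 passed in only 1 and Mcm3, Mcm10 and Uhrf1 in 2. Others of the 18 passed in 3 to 8. In Mef2cAHF::Cre 1103 of 16920 genes passed with DESeq2's Wald test and 1311 of 29613 with a filter of at least 1 count. Of the 36, 1 and 2 were higher in these fits, with a range of 0 to 1 when a library was left out. In Tnnt2::Cre the range was 0 to 3 lower, while 4 to 896 genes passed over the whole table. In the stage comparison it was 6 to 10 lower, 6 being without Tnnt2::Cre control 2, with 4758 to 6156 genes passing. The number of genes with an effect lower in Mesp1Cre than in Tnnt2::Cre was 2, and 4 with DESeq2's Wald test. It ranged from 0 to 5 when each library was left out, an alternative added after seeing the data, and the number with a higher effect from 1 to 2. Near-zero effects changed sign. Ccnd2 in Mef2cAHF::Cre was at −0.13 on both FPKM scales, −0.013 with the erythroid covariate and −0.066 to 0.10 with libraries left out, and Ccnd1 in Tnnt2::Cre was at −0.028 to 0.22 with libraries left out. The causes were not tested.

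Replicate numbers are shared between groups, but same-numbered libraries did not deviate together (correlations −0.03 to 0.09 in Mesp1Cre, −0.01 to 0.18 in Mef2cAHF::Cre and −0.03 to 0.07 in Tnnt2::Cre). With the replicate number as a block, 16 of the 36 were lower and 1 higher in Mesp1Cre, where 1384 of all genes passed. In the other lines 0 of the 36 passed. A number in the Mesp1Cre sample descriptions, whose meaning the labels do not state, gave 14 lower as a block, where 1482 of all genes passed. With 3 or 4 libraries in a group, differences that were small against the spread could be missed, and E2f2, at 64 counts in its lowest library, was the least precise.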
